A study of Mus musculus with 21 samples.

Results

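Replication-dependent histone genes encode the bulk of the H1, H2A, H2B, H3 and H4 proteins that package newly copied DNA. They were taken as the protein-coding genes whose mouse symbol starts with Hist1h, Hist2h, Hist3h or Hist4h in GENCODE release M21, and 65 of the 47643 genes with counts met this rule. The classes held 6 H1, 18 H2A, 16 H2B, 12 H3 and 13 H4 genes. By position in GRCm38, 52 genes lay in the Hist1 cluster (chr13:21715763-23934851), 10 in the Hist2 cluster (chr3:96219865-96270132) and 2 in the Hist3 cluster (chr11:58948920-58956830), with Hist4h4 alone at chr6:136801553-136804415. Hist1h2bm and Hist1h2bh also met the rule by name and were not analysed here.

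RNA was sequenced from 7 populations of common myeloid progenitors (CMPs) and granulocyte-macrophage progenitors (GMPs), with 3 libraries each, all sorted from unperturbed bone marrow of C57/B6 mice. Both were lineage-negative, SCA-1-negative, C-KIT+ and CD34+, and GMPs carried CD16/32 whereas CMPs did not. Each was taken in bulk or divided by surface CD62L into CD62L-low and CD62L-high CMPs, and into CD62L-neg, CD62L-low and CD62L-high GMPs. The study's text calls CD62L-low CMPs "CD62L-neg CMPs" and CD62L-low GMPs "CD62L-int GMPs". Gates on surface proteins define these populations, which may each hold a mixture of cells, and no label tells which replicates share a mouse. P-values therefore refer to the scatter among these libraries, which may be technical.

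Production of these mRNAs is tied to DNA replication. NPAT drives their transcription at histone locus bodies, and SLBP binds a stem-loop at the end of the mRNA, where the other mRNAs of the cell carry a poly(A) tail. The mRNAs are made in S phase and degraded when DNA synthesis stops. H2A, H2B, H3 and H4 form the nucleosome core, and H1 binds the linker DNA between nucleosomes. Replication-independent variants such as H1f0 or H2afz are encoded elsewhere, by polyadenylated mRNAs.

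The stem-loop was searched in the GENCODE transcript models, since it sets how these mRNAs end and hence how a library method may capture them. It was found in models of 44 members, namely 4 H1, 11 H2A, 8 H2B, 9 H3 and 12 H4 genes, in 8 different sequences. The models of the other 21 members held no match, which says only that the letters were not in those models. The member with a stem-loop and the highest level in each class is given here 5′ to 3′ in GRCm38, with the 16 bases of the stem-loop in capitals. The order is Hist1h1c (capitals at chr13:23739512-23739527, plus strand), Hist1h2ao (chr13:21810898-21810913, plus), Hist1h2bb (chr13:23747203-23747218, plus), Hist1h3e (chr13:23561903-23561918, minus) and Hist1h4d (chr13:23581950-23581965, plus).
Hist1h1c: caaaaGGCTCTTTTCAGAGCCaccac
Hist1h2ao: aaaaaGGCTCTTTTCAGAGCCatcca
Hist1h2bb: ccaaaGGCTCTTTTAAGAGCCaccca
Hist1h3e: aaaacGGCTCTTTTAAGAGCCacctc
Hist1h4d: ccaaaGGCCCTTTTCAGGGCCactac

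Promoters were taken from RefSeq (GRCm38.p6, 250 bases before to 50 after the start) for the 60 members listed there, and 5 members had no entry. Motifs were searched on both strands and without regard to overlap with one another. Promoters of neighbouring H2A and H2B genes on opposite strands overlap, so a single site can count for both genes. This holds for the octamer of Hist1h2ae and Hist1h2bg and for the H1 box of Hist1h2aa and Hist1h2ba. Numbers of promoters are therefore not numbers of separate sites. TATAAA occurred in 58.3% of member promoters and in 14.2% of all 27025 promoters of this length, and CCAAT in 85.0% against 37.9%. CCAAT occurred in every H1, H2A, H2B and H3 promoter listed and in 3 of 12 H4 promoters. The octamer ATTTGCAT occurred in 7 of 18 H2A and 5 of 14 H2B promoters and in 1.8% of all promoters. The H1 box AAACACA occurred in 5 of 6 H1 promoters, 2 H2A and 1 H2B promoter, and in 7.1% of all. GGTCCG, the core of the H4 element named site II, occurred in 11 of 12 H4 promoters, 1 H3 promoter and 8.4% of all. These windows have the H1 box or the site II core in capitals, for the H1 genes that hold one and for the 3 H4 genes with the highest level per kilobase. On chr13 they span, in the order shown, 21780725-21780754 (minus strand), 23554898-23554927 (plus), 23622656-23622685 (minus), 23695685-23695714 (plus), 23738683-23738712 (plus), 23581509-23581538 (plus), 23531027-23531056 (plus) and 21750568-21750597 (minus).
Hist1h1b: ttggggactaacAAACACAatttgggattg
Hist1h1d: ttgaggggcaacAAACACAgccacaaggca
Hist1h1e: ttgaggtgtaacAAACACAactccgcatct
Hist1h1t: tggggggaaaagAAACACAaatgcccctcc
Hist1h1c: gtgaagtgtaacAAACACAagttgggcgca
Hist1h4d: ggttttcaaacaGGTCCGcattggtattat
Hist1h4h: agtcttcaatcaGGTCCGaaaacactgcat
Hist1h4k: ggttctcatttcGGTCCGcccgccgcagta

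In the 5 H1 windows the box began 112 to 122 bases before the start. Hist1h1a, the remaining H1 gene, had no AAACACA in its window. Hist1h1t, the testis H1, carried the box but was almost silent in these cells. A match describes the letters only.

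Total counts per library ran from 6145834 to 15263573. Bulk CMP and CD62L-low CMP libraries had 6145834 to 7509818, and libraries of the other populations 11360760 to 15263573. Depth therefore cannot be told apart from population in CD62L-high against CD62L-low CMPs or in bulk GMPs against bulk CMPs. A pair of libraries stood apart in ribosomal RNA. Gene models of ribosomal RNA took 61.03% of the counts in bulk CMP replicate 2, against 28.04% and 27.66% in the other bulk CMP libraries, and 41.09% in CD62L-high GMP replicate 1, against 29.51% and 27.84% in the other CD62L-high GMP libraries. The study's methods state that a bulk CMP sample was left out for a low mapping rate, without naming it. In bulk samples, fewer cells of a type and less RNA per cell cannot be told apart.

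Of the 65 members, 61 had enough counts to be tested, with a median of 36295 counts over all libraries. The other 4 were Hist1h2aa, Hist1h2ba, Hist2h2aa1 and Hist2h3c1, with 5, 101, 19 and 0 counts. Levels are CPM (counts scaled to an equal library size) after TMM scaling, a correction for library composition, and each value is a mean ± SD of 3 libraries unless said otherwise. Of the 61 tested members, 39 had a mean of at least 100 CPM and 4 a mean under 10 CPM. A median of 55.0% of a member's windows of 50 bases occurs in annotated transcripts of other genes. This search took both strands and included genes that overlap the member, so it does not measure sharing between members alone. In Hist2h2aa2 and Hist2h2bb all windows occur in an overlapping gene on the opposite strand (Gm20632 and Gm20628). In Hist1h2bq 97.3% of windows occur in another member, Hist1h2br, whereas Hist1h1a, Hist1h1b, Hist1h1t and Hist2h2be share none. Values of single core histone genes are therefore uncertain, and class sums may be too, since the handling of reads with several matches is not known. Among H1 genes, Hist1h1e overlaps Hist1h2be on the same strand, so values of both may be affected. Of the windows of Hist1h1e, 32.0% occur in transcripts of other genes and 23.8% in Hist1h2be.

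Per kilobase of gene model, Hist1h2bn and Hist1h2ak led at 1019 and 1001 CPM per kilobase over all libraries. Hist1h2ao followed at 747, Hist1h1a at 633, Hist1h2af at 627, Hist1h4d at 586, Hist1h3e at 565, Hist1h2bb at 539, Hist1h3i at 534, Hist1h1c at 510, Hist1h4h at 495, Hist1h1b at 480 and Hist1h4k at 464. All of these lie in the Hist1 cluster, which supplied 8802 of the 9672 CPM of all members in bulk GMPs. Hist1h2bj (323) and Hist1h3c (306) closed the list of 3 per class. This ranking depends on the annotated model lengths, which ran from 312 to 7425 bases. Hist1h1d, at 566 CPM over all libraries, gave 76.2 per kilobase with a model of 7425 bases. Hist1h2bn, at 388 CPM, has a model of 381 bases.

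Histone mRNA was highest in CD62L-high GMPs. Summed over the 65 members it came to 19200 ± 5679 CPM there, against 11220 ± 1152 in CD62L-low GMPs, 9700 ± 495 in CD62L-neg GMPs and 9672 ± 136 in bulk GMPs. The CMP populations lay at 10040 ± 5500 (bulk), 8768 ± 1254 (CD62L-low) and 9511 ± 1039 (CD62L-high). As a share of the counts on protein-coding genes, members took 2.96% in CD62L-high GMPs and 1.5% to 1.74% in the other populations. Bulk CMP replicate 2 (16390) exceeded the lowest CD62L-high GMP library (15810), and every other library was below it. The other bulk CMP libraries, at 7022 and 6713, were the lowest of all 21, below the lowest CD62L-low CMP library (7337). With all libraries, neighbours in this order other than CD62L-high GMPs did not differ beyond their spread.

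**Figure D1:**
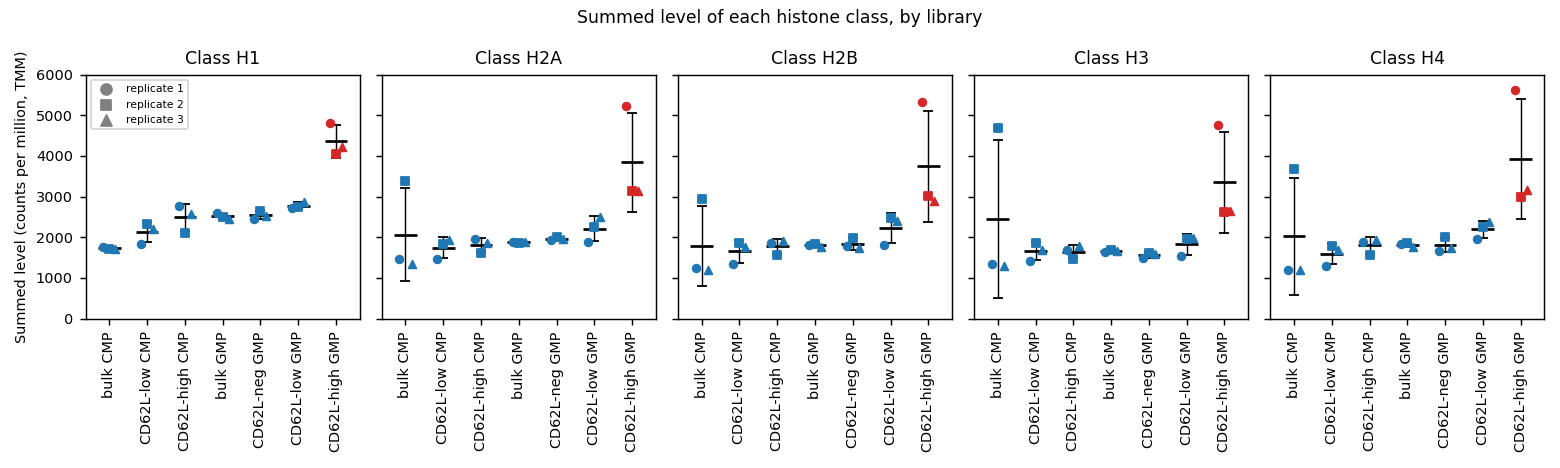
Summed level of each histone class (y axis, TMM-scaled CPM) in the 21 libraries by population (x axis), with points for libraries and bars for mean ± SD of 3. The H1 sums of CD62L-high GMPs (4045 to 4812) lie above every other library, whereas in the core classes bulk CMP replicate 2 and CD62L-high GMP replicate 1 are far above the other libraries of their populations.

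Linker histones were highest in CD62L-high GMPs and lowest in bulk CMPs. Their summed level was 4812, 4045 and 4214 CPM in the 3 CD62L-high GMP libraries, 2723, 2743 and 2868 in CD62L-low GMPs and 2452, 2646 and 2514 in CD62L-neg GMPs. It was 2509 ± 66.0 in bulk GMPs, 2485 ± 332 in CD62L-high CMPs, 2126 ± 255 in CD62L-low CMPs and 1725 ± 33.7 in bulk CMPs. The lowest CD62L-high GMP library was above the highest library of every other population, and bulk CMP replicate 2 (1710) did not stand apart for H1.

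The core histones moved in the same direction in CD62L-high GMPs with more scatter. Summed H2A was 3839 ± 1212 CPM there against 1962 ± 43.0 in CD62L-neg GMPs, H2B was 3742 ± 1369 against 1834 ± 138, H3 was 3345 ± 1233 against 1568 ± 69.4, and H4 was 3922 ± 1470 against 1801 ± 174. All core genes together gave 20950, 11770 and 11830 CPM in the CD62L-high GMP libraries, and 6869, 7616 and 7007 in CD62L-neg GMPs. In bulk CMPs they gave 5258, 14680 and 5011. The high value in each trio belongs to the library with the larger ribosomal share, and H1 made up 18.68% of the histone counts in that CD62L-high GMP library and 10.43% in that bulk CMP library, the lowest shares of their populations. Whether the ribosomal share has a part in the core histone levels was not tested. With CD62L-high GMP replicate 1 left aside, core sums in the remaining CD62L-high GMP libraries were still above all CD62L-neg and CD62L-low GMP libraries, of which the highest was 9244.

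**Figure D2:**
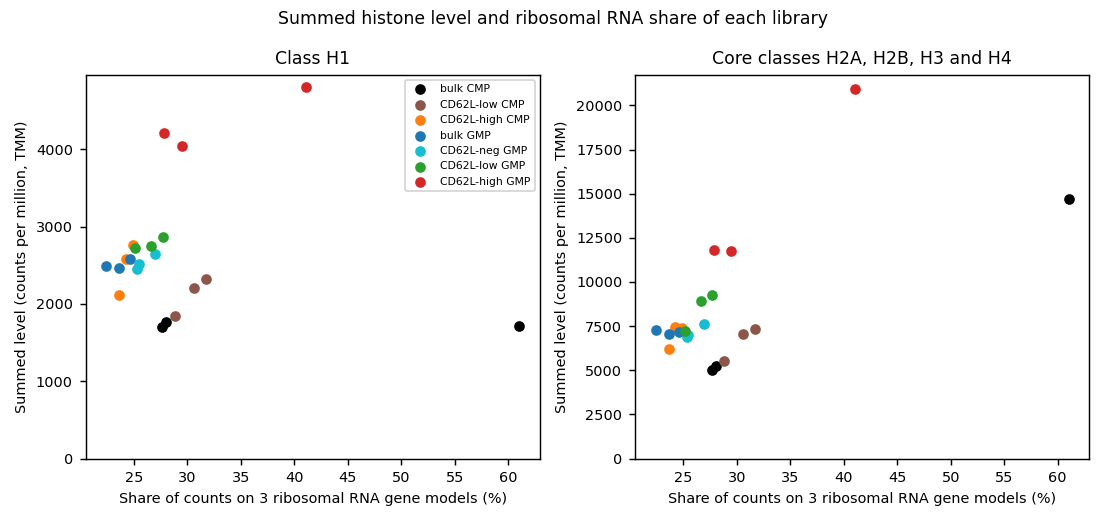
Summed level of H1 genes and of core histone genes (y axes, TMM-scaled CPM) against the share of counts on ribosomal RNA models (x axis, percent) in the 21 libraries. Bulk CMP replicate 2, at 61.03%, has a core sum of 14680, while its H1 sum (1710) is close to those of the other bulk CMP libraries.

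RNAs without a poly(A) tail were measured beside these. A list of 8 such RNAs summed to 58270 CPM in bulk CMP replicate 2 and to 10920 and 11120 in the other bulk CMP libraries. In CD62L-high GMPs it gave 14670, 7955 and 9478 CPM, within the range of CD62L-neg GMPs (7683 to 15340), and none of its genes was called between CD62L-high and CD62L-neg or CD62L-low GMPs by edgeR or DESeq2, with 0 at an unadjusted p under 0.05.

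Member by member, CD62L-high GMPs had the highest mean for 57 of the 61 tested genes. The exceptions were Hist1h3a, highest in bulk CMPs, and Hist3h2a, Hist3h2ba and Hist2h2be, highest in CD62L-low CMPs. Hist1h3a measured 117, 446 and 135 CPM in the bulk CMP libraries and 315, 170 and 171 in CD62L-high GMPs, and without bulk CMP replicate 2 it was highest in CD62L-high GMPs, as were 58 of the 61. The lowest mean fell in CD62L-low CMPs for 24 members, in bulk GMPs for 13, in CD62L-neg GMPs for 10, in bulk CMPs for 7, in CD62L-high CMPs for 6 and in CD62L-low GMPs for 1. Of the bulk CMP minima, 5 were H1 genes. This tally rests on bulk CMP replicate 2. Without it, a choice made after seeing the data, the lowest mean fell in bulk CMPs for 50 members, in CD62L-low CMPs for 4, in bulk GMPs and CD62L-neg GMPs for 3 each, and in CD62L-low GMPs for 1.

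**Figure D3:**
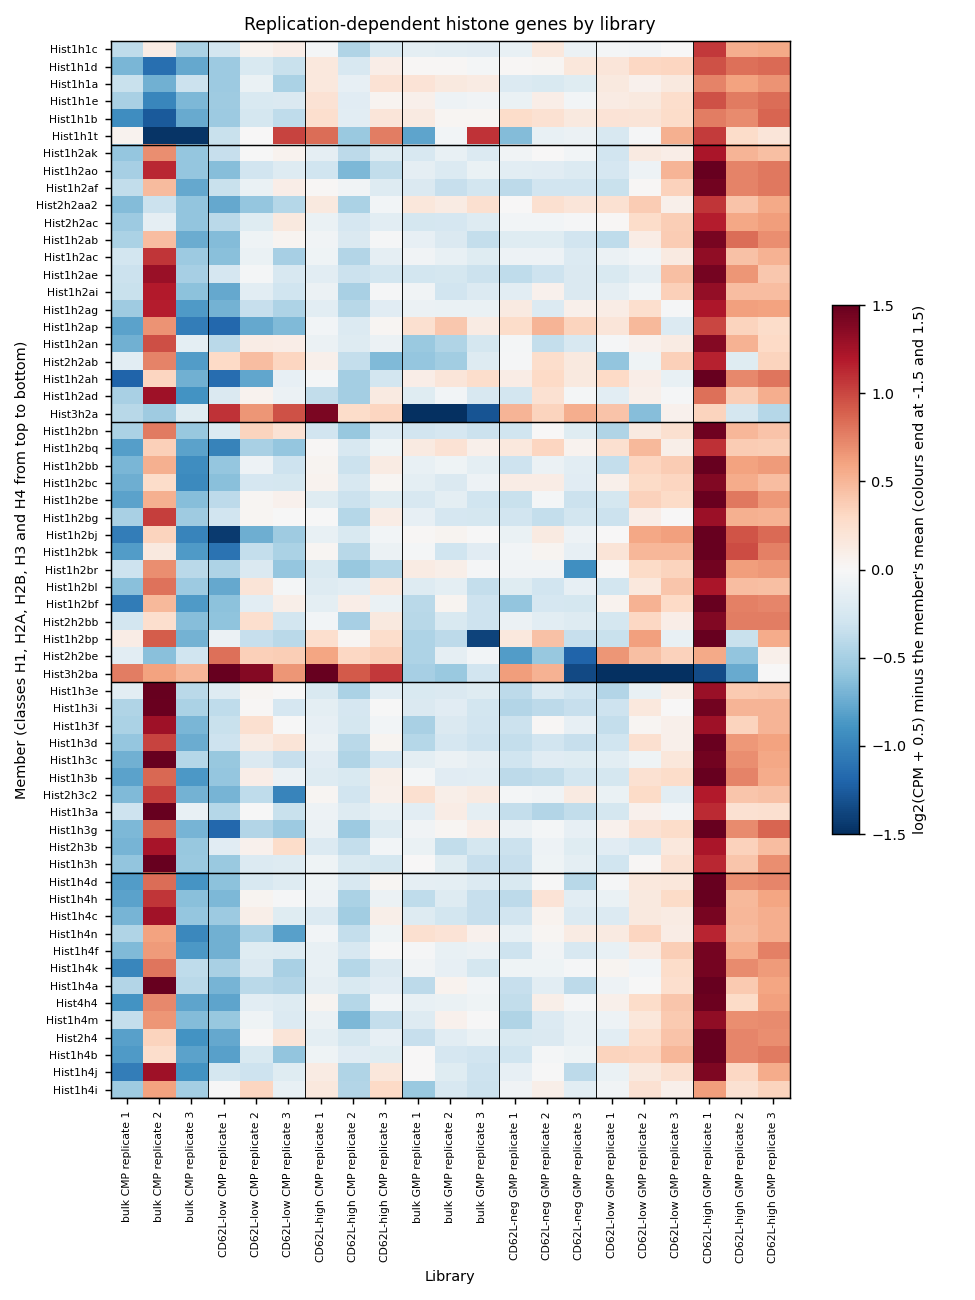
Level of the 61 tested members (one line each, by class) in the 21 libraries, as log2(CPM + 0.5) minus the gene's mean, with colours from -1.5 to 1.5. CD62L-high GMP libraries are above the mean for most members, and bulk CMP replicate 2 is above it for 51 of 55 core genes and for 1 of 6 H1 genes.

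CD62L-high GMPs were compared with CD62L-neg GMPs, the ends of the CD62L range within GMPs. A gene was called at an edgeR adjusted p under 0.05 over 14801 genes and a fold over 2. Of the 61 members, 29 were upregulated in CD62L-high GMPs and 0 were downregulated, where 4.49% and 6.01% of all genes tested were called higher and lower. Those called were 0 of 6 H1, 5 of 16 H2A, 9 of 15 H2B, 6 of 11 H3 and 9 of 13 H4 genes. The median log2 fold change of members was 1.02, against -0.04 for all genes, and 59 of 61 were positive. DESeq2 called 27 higher and 0 lower, and 0 were lower at an unadjusted p under 0.05 in edgeR. The 29 tested members with at most 50% of their windows shared had a median of 1.01 and 12 calls, and the 32 others a median of 1.02 and 17 calls. All CD62L-high libraries were above all CD62L-neg libraries for 55 members, as for 15.2% of all genes.

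By the adjusted p alone, 44 members were higher, against 8.28% of all genes, and these included 5 of the 6 H1 genes. Hist1h1a measured 760, 688 and 724 CPM in CD62L-high GMPs and 393, 387 and 398 in CD62L-neg GMPs (log2 fold change 0.88 ± 0.14 (SE), adjusted p = 6.43e-05). Hist1h1e measured 841, 744 and 776 against 405, 464 and 422 (0.87 ± 0.14, adjusted p = 8.1e-05). Hist1h1d measured 1034, 940 and 958 against 537, 543 and 598 (0.81 ± 0.14, adjusted p = 0.000161). These 3 somatic linker histones did not overlap between the groups and differed by less than 2-fold. Hist1h1c (1604, 1122 and 1138 against 713, 858 and 724) gave 0.75 ± 0.17 with adjusted p = 0.00248. Hist1h1b (570, 550 and 616 against 404, 393 and 371) gave 0.57 ± 0.14 with adjusted p = 0.0051. All 5 passed the adjusted p in each of the 21 fits that left out one library, with the weakest value, 0.0368, for Hist1h1b.

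Among core histones the largest fold change belonged to Hist1h2bf, an H2B gene. It measured 181, 97.3 and 95.3 CPM in CD62L-high GMPs and 37.9, 48.1 and 47.4 in CD62L-neg GMPs (1.48 ± 0.30, adjusted p = 0.000889). Hist1h2af, an H2A gene, measured 638, 392 and 404 against 178, 192 and 191 (1.35 ± 0.24, adjusted p = 0.000204). Hist1h3b, an H3 gene, measured 449, 254 and 222 against 115, 117 and 125, a difference of 1.37 ± 0.33. The groups did not overlap for these genes, and replicate 1 was the highest CD62L-high library in each. Log2 fold changes were 1.30 for Hist1h3d, 1.30 for Hist1h2ao and 1.29 for Hist1h3i, all called. Hist1h4d, the H4 gene with the highest level per kilobase, measured 1859, 989 and 1012 CPM against 520, 609 and 458 (1.28 ± 0.31, adjusted p = 0.0051).

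The number of called core genes depended on CD62L-high GMP replicate 1. Without it 3 members were called, namely Hist1h2af (1.09), Hist1h2bf (1.12) and Hist1h3b, where 3.37% of all genes were called higher. By the adjusted p alone 20 members were then higher against 5.94% of all genes: 5 of 6 H1, 3 of 16 H2A, 6 of 15 H2B, 2 of 11 H3 and 4 of 13 H4 genes. The median log2 fold change was 0.70 and 57 of 61 members stayed positive.

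**Figure D4:**
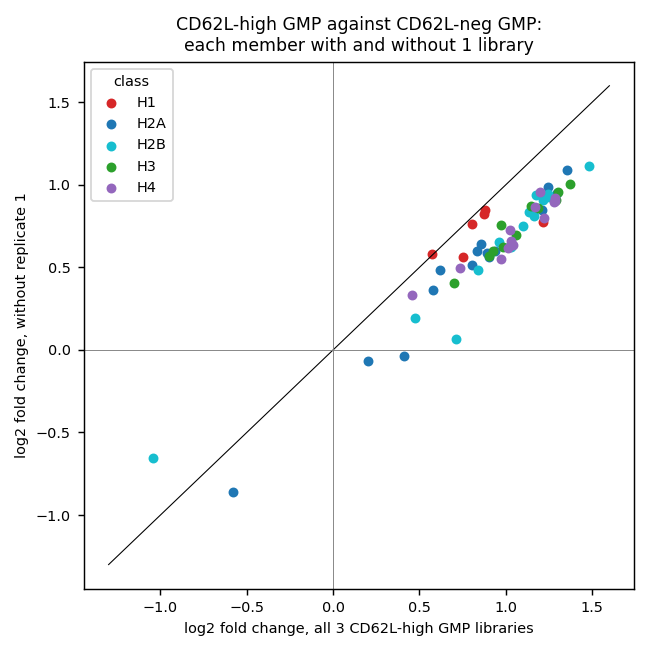
Log2 fold change of the 61 members, CD62L-high against CD62L-neg GMPs, with all libraries (x axis) and without CD62L-high GMP replicate 1 (y axis), coloured by class. The median drops from 1.02 to 0.70, and 5 of the 6 H1 genes pass the adjusted p in both fits.

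Cell type markers also differed between these populations. The summed level of 5 monocyte markers was 1356 to 1643 CPM in CD62L-high GMPs and 49.1 to 67.3 in CD62L-neg GMPs, and 5 of 5 were called higher. Erythroid markers summed to 0.402 to 4.17 against 29.3 to 46.8 (5 of 8 called lower, with Gata1, Klf1 and Car1 among those at 0 in CD62L-high GMPs), and megakaryocyte markers to 0.519 to 0.603 against 113 to 139 (5 of 6 called lower, with Gp9 at 0). CD62L-low GMPs had a monocyte sum of 781 to 845 CPM. The part of the cell mixture in the histone values was not tested.

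CD62L-high GMPs were next compared with CD62L-low GMPs, the intermediate fraction. The histone genes differed in the same direction by less, with a median log2 fold change of 0.78 and 59 of 61 members positive. All CD62L-high libraries were above all CD62L-low libraries for 51 members, against 9.53% of all genes. Past the call 1 member was upregulated and none downregulated, where 0.331% and 0.885% of all genes were. By the adjusted p alone 9 were higher, against 0.858% of all genes. Those were Hist1h1e (0.68, adjusted p = 0.0103), Hist1h1c (0.76), Hist1h1d (0.60), Hist1h1b (0.57), Hist1h1a (0.55), Hist1h2af (0.99), Hist1h2ab (0.96), Hist2h2bb (0.96) and Hist3h2ba. Their adjusted p-values were 0.0103 to 0.0476 in edgeR. In the fits that left out one library, Hist1h1e passed in 19 of 21, Hist1h1c in 17, Hist1h1d in 15, Hist1h1b in 4 and Hist1h1a in 3. Hist1h1d, for example, measured 603, 659 and 668 CPM in CD62L-low GMPs, below its 940 to 1034 in CD62L-high GMPs. Without CD62L-high GMP replicate 1 the members past the adjusted p were Hist1h1e (0.63, adjusted p = 0.0475) and Hist3h2ba, where 0.239% of all genes were, and 1 member was called, against 0.103%. The median was then 0.48, with 59 of 61 positive.

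The single call here, Hist3h2ba, an H2B gene of the Hist3 cluster, rests on few counts. It had 38 counts in the CD62L-high and 2 in the CD62L-low GMP libraries, a ratio of 19.4 with a counting interval of 5.03 to 166 (exact, 95%), which covers counting error only. It was called in 17 of the 21 fits that left out one library, and not without any single CD62L-low GMP library or CD62L-high GMP replicate 3.

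**Figure D5:**
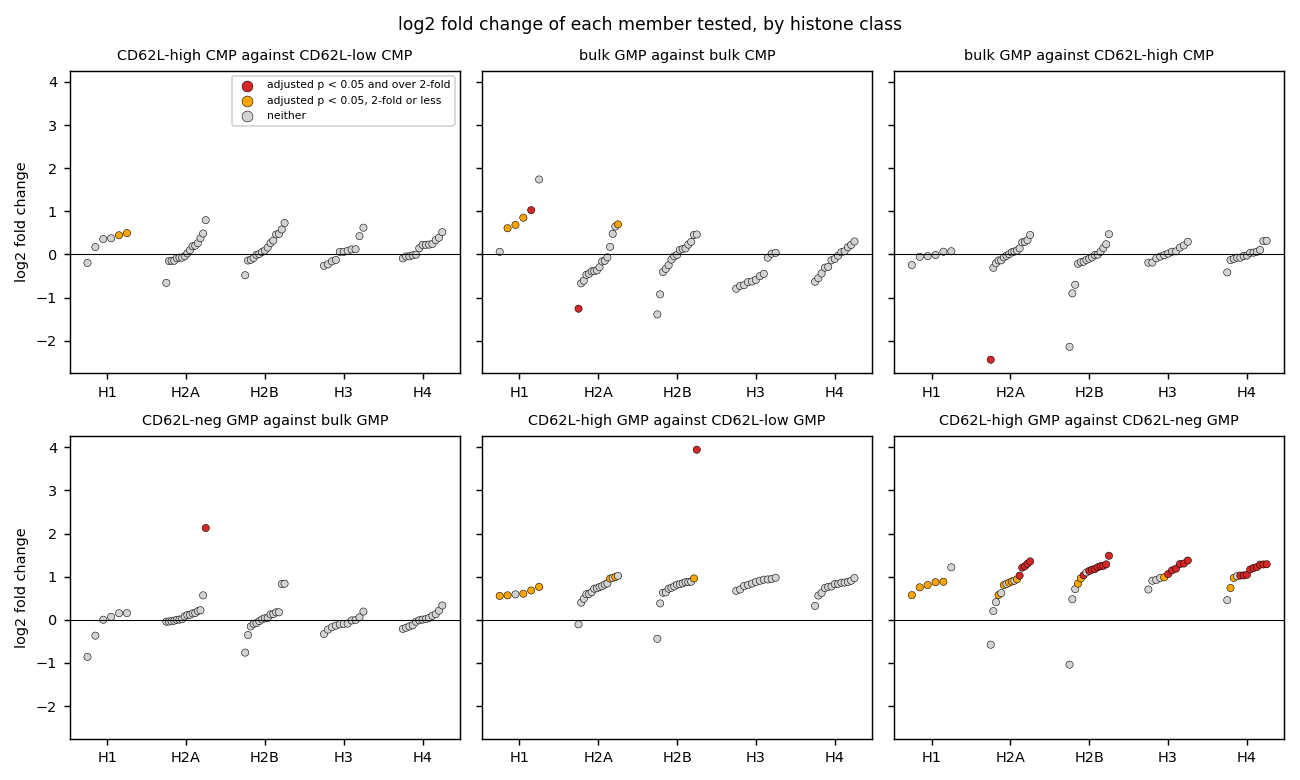
Log2 fold change of each tested member (points, by class on the x axis) in the 6 comparisons of populations. Members lie mostly above 0 in both CD62L-high GMP panels (medians 0.78 and 1.02) and around 0 in the others.

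Within CMPs, CD62L-high CMPs were compared with CD62L-low CMPs. None of the 61 members was called in edgeR or DESeq2, with 8 higher and 0 lower at an unadjusted p under 0.05, whereas 5.62% of all genes were called higher and 4.84% lower. At the adjusted p alone 2 were higher, against 9.94% of all genes, a share below the background. They were Hist1h1b (399, 299 and 380 CPM against 229, 278 and 258, 0.49 ± 0.14, adjusted p = 0.0148) and Hist1h1a (504, 415 and 525 against 310, 424 and 326, 0.45 ± 0.14, adjusted p = 0.0291). Hist1h1b did not overlap between these groups and Hist1h1a did, and each passed in 17 of the 21 fits that left out one library. The median log2 fold change of members was 0.10.

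The effect of CD62L in GMPs (high against neg) was set against that in CMPs (high against low), as an interaction term. The gates of these sorts differ. The study divided all CMPs by CD62L level, but took smaller outer fractions of GMPs as CD62L-neg and CD62L-high. A difference between CMPs and GMPs therefore cannot be told apart from gate width. The interaction term was positive for 57 of 61 members with a median of 0.90, and 9 passed an adjusted p of 0.05, as did 7.35% of all genes. They were the H2B genes Hist1h2bn, Hist1h2be and Hist1h2br, the H4 genes Hist1h4m and Hist2h4, the H2A genes Hist1h2af and Hist2h2ac, the H3 gene Hist1h3d, and Hist1h1c. Hist1h1c was -0.20 in CMPs and 0.75 in GMPs, and Hist1h2bn was -0.48 and 1.03. Without CD62L-high GMP replicate 1 the count was 2 (Hist1h2af and Hist1h1c), a share below the 6.13% of all genes. It was 35, against 11.3% of all genes, without bulk CMP replicate 2, a library that is in none of these groups but enters the shared fit.

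Bulk GMPs were compared with bulk CMPs, the step of differentiation. Hist1h1b was upregulated, at 368, 341 and 341 CPM in bulk GMPs and 175, 139 and 199 in bulk CMPs (1.03 ± 0.14, adjusted p = 1.21e-05), close to the 2-fold threshold. It was the 1 member called higher, against 4.19% of all genes, and Hist3h2a the 1 called lower, against 7.3%. By the adjusted p alone 5 were higher, against 9.72% of all genes. The others were Hist1h1d (0.85), Hist1h1e (0.69), Hist1h1a (0.61) and Hist2h2aa2 (0.70), an H2A gene whose sequence windows all occur in transcripts of other genes too. Hist1h1c was 0.06 (adjusted p = 0.837). For Hist1h1b, bulk CMPs lay below both CMP fractions, with a mean of 171 CPM against 255 (CD62L-low) and 359 (CD62L-high). The means of Hist1h1a, Hist1h1d and Hist1h1e were also lower in bulk CMPs than in either CMP fraction, unlike that of Hist1h1c. Why bulk CMPs lay below both fractions was not tested. The median of members was -0.12. Under DESeq2, RLE factors or protein-coding library sizes, 1 member was called in all, and 0 with only the populations compared. Hist3h2a passed in 18 of the 21 fits that left out one library, with a highest adjusted p of 0.0601.

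Core genes in this comparison turned on bulk CMP replicate 2. Hist1h4d measured 341, 1091 and 330 CPM in bulk CMPs and 556, 551 and 529 in bulk GMPs. Summed H3 in bulk GMPs was 0.682 of that in bulk CMPs, and 1.26 times that without replicate 2. Without it the median of members was 0.44, 58 of 62 were positive, and 23 passed the adjusted p alone with higher levels, against 8.27% of all genes. The calls were then Hist1h2ap (1.19), Hist1h2bj (1.04) and Hist1h2ah (1.16) higher, and Hist3h2a lower. Hist1h1b had an adjusted p of at most 0.0002 in the 21 fits that left out one library and a fold over 2 in 19 of them.

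In bulk GMPs against CD62L-high CMPs, 0 members were called higher and 1 lower, where 2% and 2.34% of all genes were called, and the median of members was -0.02. In CD62L-neg GMPs against bulk GMPs, 1 was higher and 0 lower, against 1.89% and 2.18%. Both calls were Hist3h2a.

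Hist3h2a, the H2A gene of the Hist3 cluster, followed its own course. It measured 2.35, 2.39 and 2.98 CPM in bulk GMPs, the lowest of all populations, and 11.6, 10.3 and 11.9 in CD62L-neg GMPs (2.13 ± 0.35, adjusted p = 0.000261). It measured 22.1, 9.84 and 10.1 in CD62L-high CMPs (bulk GMPs lower by -2.44 ± 0.35, adjusted p = 5.46e-05), and 5.90, 5.38 and 7.05 in bulk CMPs (-1.26 ± 0.36, adjusted p = 0.0158). Its highest mean was in CD62L-low CMPs, at 17.6, 13.0 and 16.1 CPM, and CD62L-high GMPs had 10.3, 6.60 and 5.83. Bulk GMPs did not overlap with any of these populations, nor with CD62L-low GMPs (10.9, 4.97 and 8.40). Each bulk population thus lay below every CD62L fraction of its own kind, since bulk CMP libraries were below all CD62L-low and CD62L-high CMP libraries. Why both bulk populations were lower than their fractions was not tested. Of the 50-base windows of Hist3h2a, 31.5% occur in Trim17, a gene that overlaps it on the same strand, so its reads may be shared. Hist3h2ba was lower than Hist3h2a in every library, and its means ran from 0.051 ± 0.046 CPM in CD62L-low GMPs to 4.91 ± 2.03 in CD62L-low CMPs.

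Over all 7 populations, 50 of the 61 members differed in some comparison at an edgeR adjusted p under 0.05, against 39% of all genes. By class these were 5 of 6 H1, 14 of 16 H2A, 13 of 15 H2B, 8 of 11 H3 and 10 of 13 H4 genes. The smallest adjusted p-values belonged to Hist1h1d (2.85e-08), Hist1h1b (3.29e-08), Hist1h1e (1.88e-07) and Hist1h1a (5.76e-06). Hist1h2bk, Hist2h2aa2, Hist2h2ac, Hist1h4b, Hist3h2a and Hist1h2bj followed. Without CD62L-high GMP replicate 1 the count was 28, against 37.5% of all genes.

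The testis genes were near 0. Hist1h1t was at most 2.45 CPM in any library, Hist1h2ba at most 1.47 and Hist1h2aa at most 0.242. Hist1h1c, Hist1h2bc and Hist2h2be are known for also making polyadenylated mRNA. Hist1h2bc measured 539, 304 and 284 CPM in CD62L-high GMPs and 223, 223 and 184 in CD62L-neg GMPs (0.84 ± 0.25, adjusted p = 0.0188). Hist2h2be measured 6.13, 2.45 and 4.22 against 1.99, 2.52 and 1.44, which overlapped (1.10 ± 0.38, adjusted p = 0.0511).

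Genes that act on histones or mark the cell cycle were measured in the same fits. Between CD62L-high and CD62L-neg GMPs 0 of 20 S phase genes were called by edgeR or DESeq2, with a median log2 fold change of 0.22. At an unadjusted p under 0.05, 5 were higher, of which Rrm1 and Cdt1 passed the adjusted p alone. The S phase genes summed to 3127 ± 139 CPM in CD62L-neg, 3667 ± 41.0 in CD62L-low and 3499 ± 355 in CD62L-high GMPs. CD62L-high libraries (3098 to 3773) overlapped with CD62L-neg (2970 to 3232) and with CD62L-low libraries (3623 to 3704). Of 20 genes of G2 and M phase 0 were called by edgeR or DESeq2, 12 were higher at an unadjusted p under 0.05 and 9 at the adjusted p alone, with a median of 0.47. Against CD62L-low GMPs, 0 S phase genes were called by edgeR or DESeq2 (median -0.07, 1 higher and 1 lower at an unadjusted p under 0.05). There 1 G2 and M phase gene was called, Ube2c (1.02, adjusted p = 0.00595), which encodes a ubiquitin-conjugating enzyme of mitosis. All 20 genes of G2 and M phase were positive in that comparison, with a median of 0.48. At the adjusted p alone 4 of them were higher, against 0.858% of all genes.

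Of 17 genes for the transcription and 3′ processing of histone mRNAs, 2 were upregulated in CD62L-high against CD62L-neg GMPs. These were Lsm10, a subunit of the U7 particle that cuts histone pre-mRNA (1.14, adjusted p = 0.0327), and Ccne1, the gene of cyclin E (1.5, adjusted p = 0.00552). Slbp gave 0.44 (adjusted p = 0.293), Npat -0.04 (adjusted p = 0.924) and Casp8ap2, a component of histone locus bodies, 0.04 (adjusted p = 0.941). None of 16 histone chaperone genes was called by edgeR or DESeq2, with 1 higher and 1 lower at an unadjusted p under 0.05. Of 11 replication-independent variants H1fx, a linker histone, was downregulated (-1.23, adjusted p = 0.00381). H1f0, the linker histone of resting cells, gave -0.88 (adjusted p = 0.00266) and H2afx 0.99 (adjusted p = 0.022), both under 2-fold.

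The same linker variants were downregulated in 2 further comparisons. In CD62L-high against CD62L-low CMPs, H1f0 gave -1.62 and H1fx -1.53, while H2afy (2.26) and H2afy2 (2.67), the macroH2A genes, and Ccne1 (1.11) were upregulated. In bulk GMPs against bulk CMPs, H1f0 gave -1.04 and H1fx -1.62, while Ccne1 (1.10), Ccne2 (1.39) and the S phase genes Cdc45 (1.54), Rrm2 (1.51) and Cdc6 (1.25) were upregulated, as were Ccnb1 (1.22), Aurkb (1.14) and Cenpe (1.04) of mitosis. In all 3 of 20 S phase genes were called there, by edgeR and by DESeq2. Bulk CMP libraries scattered widely, with sums of 785 to 1963 CPM for G2 and M phase and 1700 to 3020 for S phase. Cenpe measured 57.4 ± 34.2 CPM in bulk CMPs against 120 ± 2.58 in bulk GMPs. Ccnb1 (14.9 ± 2.53) and Aurkb (30.4 ± 2.37) scattered less in bulk CMPs. Whether these cell cycle calls depend on a single library was not tested. None of the S phase genes was called between CD62L-high and CD62L-low CMPs in edgeR or DESeq2, with 9 of 20 higher at an unadjusted p under 0.05 and 5 at the adjusted p alone. All 20 were positive, with a median of 0.36. Of the 20 genes of G2 and M phase, 7 were higher there at the adjusted p alone.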

How the data were processed

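RNA-seq counts of 21 libraries in 7 populations were analysed. The authors used bcl2fastq for demultiplexing, Trim Galore for trimming, HISAT2 for alignment (genome mm10) and HTSeq for counting, and deposited unscaled counts per gene. Tool versions, the strand setting and the handling of reads with several matches are not given in the sources used here. The paper names a SMART-Seq v.4 Ultra Low Input kit, which primes on poly(A), and the labels a SMARTer Stranded kit. Capture of mRNAs that end in a stem-loop may differ between these.

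Libraries of all populations were fitted together in edgeR 4.0.16 (R 4.3.3) after filterByExpr and TMM, with the quasi-likelihood test and no covariates. P-values were adjusted by Benjamini and Hochberg over 14801 genes, and calls between pairs needed an adjusted p below 0.05 with a change above 2-fold. Of the identifiers, 99.12% matched GENCODE M21. The members, lists and alternatives were chosen with earlier results of these data known. Genes named are the 3 highest per kilobase in each class, up to 6 called per direction, the 10 with the smallest adjusted p over all populations, those with a called interaction, the testis and polyadenylated members, and up to 3 called list genes per direction with Slbp, Npat and Casp8ap2. Others were chosen after their values were seen, among them Hist1h2ap, Hist1h2ah, Hist2h2bb, Hist1h2ab, H2afx and the genes past the adjusted p alone. Alternatives were DESeq2 1.42.0, other scaling, filters, thresholds and sample sets, a replicate block, and leaving out each library. The fits were tested on simulated data. Libraries with the same replicate number did not deviate together (correlations of -0.0309 to 0.0359), so numbers were not used as pairs. No 2 libraries agreed within sampling noise. The check of the sorted fractions against their marker gene is not reported here.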

Additional observations from a re-analysis of the deposited data

Results flagged for a closer look

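For 9 members the effect of the CD62L sort differed between GMPs and CMPs by the interaction term, as for 7.35% of all genes. The sorts of GMPs and CMPs also differ in gate width, which cannot be told apart from this. The log2 difference (GMPs minus CMPs) was 1.513 for Hist1h2bn, 1.463 for Hist1h3d, 1.381 for Hist1h2be, 1.332 for Hist2h4, 1.328 for Hist1h2af, 1.291 for Hist1h4m, 1.239 for Hist1h2br, 0.9482 for Hist1h1c and 0.8991 for Hist2h2ac. All 9 differences were positive, and their adjusted p-values in edgeR ran from 0.0133 (Hist1h2af) to 0.0440 (Hist1h3d). Without CD62L-high GMP replicate 1, Hist1h2af and Hist1h1c passed, a share below the 6.13% of all genes.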

How the results depend on the processing

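No called value changed direction, but without bulk CMP replicate 2 the median of members in bulk GMPs against bulk CMPs turned from -0.12 to 0.44. With all libraries, members called were 2 for bulk GMPs against bulk CMPs, 1 for bulk GMPs against CD62L-high CMPs, 0 for CD62L-high against CD62L-low CMPs, 1 for CD62L-neg against bulk GMPs, 1 for CD62L-high against CD62L-low GMPs, 29 for CD62L-high against CD62L-neg GMPs, 9 for the interaction and 50 for any difference. Bulk GMPs against bulk CMPs gave 1 with DESeq2, with RLE factors and with protein-coding library sizes, 0 with only the populations compared, and 6 with glmTreat or no fold threshold. Bulk GMPs against CD62L-high CMPs gave 2 with DESeq2 and with only the populations compared. Without a fold threshold, the count was 2 for CD62L-high against CD62L-low CMPs, 9 for CD62L-high against CD62L-low GMPs and 44 for CD62L-high against CD62L-neg GMPs. CD62L-high against CD62L-low GMPs gave 2 without a filter and 0 with only the populations compared, and the interaction gave 34 and 26 there. The interaction fell from 9 by over 1.5 times without CD62L-high GMP replicate 1, CD62L-high CMP replicates 2 or 3, CD62L-low CMP replicates 2 or 3, or CD62L-neg GMP replicates 1 or 3, and rose without bulk CMP replicates 2 or 3. Causes were not tested. The share of all genes that passed also moved with the setting. For the interaction it was 7.35% with all libraries, 11.3% without bulk CMP replicate 2 and 6.13% without CD62L-high GMP replicate 1. With all libraries, 4.49% of all genes were called higher in CD62L-high than in CD62L-neg GMPs, and 39% passed for any difference. Where no such share is given, here and below, a change in count is not a result particular to the histone genes.

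Leaving out each library in turn, counts ran from 0 to 6 for bulk GMPs against bulk CMPs (0 without bulk GMP replicate 1, 6 without bulk CMP replicate 1), 1 to 2 for bulk GMPs against CD62L-high CMPs, 0 to 2 for CD62L-high against CD62L-low GMPs (0 without CD62L-low GMP replicates 1 or 2), 3 to 38 for CD62L-high against CD62L-neg GMPs, 2 to 35 for the interaction and 28 to 60 for any difference. CD62L-high against CD62L-low CMPs stayed at 0 and CD62L-neg against bulk GMPs at 1. With bulk CMP replicate 2 and CD62L-high GMP replicate 1 both left out, a choice made after seeing the data, bulk GMPs against bulk CMPs gave 4, bulk GMPs against CD62L-high CMPs 2, CD62L-high against CD62L-neg GMPs 2 and the interaction 29. A replicate block in the fit, though numbers did not pair the samples, gave 30 for CD62L-high against CD62L-neg GMPs, 8 for the interaction and 48 for any difference, with 0, 2, 1, 1 and 1 in the other comparisons.

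Summed H1 in bulk GMPs over bulk CMPs was 1.454, and 1.324 as a percent of protein-coding counts and 1.382 with RLE factors. Summed H3 in bulk GMPs over bulk CMPs was 0.682, and 1.263 without bulk CMP replicate 2. Core histone genes and Hist1h1e share sequence, so their single-gene values are limited by how reads were assigned. Library kit, strand setting and read assignment were not given clearly. With 3 libraries per population, and one apart in each of bulk CMPs and CD62L-high GMPs, core gene calls near 2-fold rest on few libraries.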
